A study of Mus musculus with 4 samples.

Results

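The AP-1 and ATF transcription factors described here are 10 genes of the basic leucine zipper (bZIP) class, chosen by name from the 27998 genes of the deposited table: Fos, Fosb, Fosl2, Jun, Junb, Jund, Atf3, Jdp2, Batf and Batf3. All 10 were present once in the table, and the rule that names them uses no measured value. Their RNA was followed in single cells of the mouse liver by droplet sequencing (10x Genomics), in which each captured RNA molecule is counted once by a unique molecular identifier (UMI). The 4 libraries came from C57BL/6J mice, 2 fed a control diet and 2 fed the Amylin diet, a diet used to model nonalcoholic steatohepatitis (NASH). In every library the sorted cells were hepatic immune cells positive for CD45, the pan-leukocyte marker, and negative for CD146, an endothelial marker. Livers of both groups were perfused and digested with 1 µM flavopiridol present, an inhibitor of CDK9 that blocks new transcription. The labels do not say whether a library is 1 mouse or a pool, or which libraries were handled together, so the p-values measure the spread between these libraries, which may be technical. The sources used here give no sex, age or time on diet.

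AP-1 is not 1 protein but a family of dimers. Fos proteins bind DNA only with a Jun partner, Jun proteins also pair among themselves, and ATF3, JDP2 and the BATF proteins join the same network of dimers, often as repressors or as partners of IRF factors. Fos, Fosb, Junb and Atf3 are immediate-early genes, whose short-lived RNA rises within minutes of growth factor, cytokine or stress signals, including the stress of tissue dissociation. In macrophages these factors act beside PU.1 at enhancers, and BATF3 is required for the dendritic cells that cross-present antigen.

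Promoters are shown for the 4 immediate-early genes named above, whose levels the results turn on. The letters are from RefSeq (GRCm38.p6), read 5′ to 3′ on the gene's strand from 250 to 8 bases before the annotated start, and lie at chr12:85473640-85473882 (Fos, plus strand), chr7:19310053-19310295 (Fosb, minus), chr8:84978756-84978998 (Junb, minus) and chr1:191183341-191183583 (Atf3, minus). None of these bases is in an annotated exon of GENCODE vM21, and the Atf3 window lies inside the annotated gene, before the start of a shorter transcript. Capitals mark TGACG, the core of the cAMP response element, searched on both strands.
Fos: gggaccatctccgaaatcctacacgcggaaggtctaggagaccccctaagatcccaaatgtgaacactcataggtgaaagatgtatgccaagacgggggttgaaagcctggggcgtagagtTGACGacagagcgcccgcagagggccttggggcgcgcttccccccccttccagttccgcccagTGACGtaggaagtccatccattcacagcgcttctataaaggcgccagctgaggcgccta
Fosb: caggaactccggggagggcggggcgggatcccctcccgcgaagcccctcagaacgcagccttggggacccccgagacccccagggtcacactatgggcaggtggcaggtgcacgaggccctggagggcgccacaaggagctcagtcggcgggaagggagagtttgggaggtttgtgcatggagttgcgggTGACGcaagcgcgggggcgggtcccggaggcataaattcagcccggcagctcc
Junb: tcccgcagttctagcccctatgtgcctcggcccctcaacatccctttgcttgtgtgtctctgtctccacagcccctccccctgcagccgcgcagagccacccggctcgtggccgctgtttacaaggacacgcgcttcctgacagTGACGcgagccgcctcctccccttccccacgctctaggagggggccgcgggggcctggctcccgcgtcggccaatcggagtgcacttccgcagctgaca
Atf3: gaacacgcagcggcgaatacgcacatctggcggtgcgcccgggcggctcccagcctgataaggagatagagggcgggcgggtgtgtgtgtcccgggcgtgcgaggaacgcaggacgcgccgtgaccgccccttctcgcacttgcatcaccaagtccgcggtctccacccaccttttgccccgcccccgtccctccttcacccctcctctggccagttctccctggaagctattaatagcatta
TGACG stood in 5 of the 12 promoters that the table holds for the 10 members (Fos, with 2 matches 129 and 66 bases before the start, Fosb at 60, Junb at 106, and 1 promoter each of Batf and Jdp2), against 17.2% of all 32851 promoters cut to the same 243 bases. The full element TGACGTCA, which contains TGACG, was in none of the 12 and in 1.48% of all. The AP-1 element TGACTCA was in none of the 12 and in 4.37% of all. The CArG box, bound by SRF, was in none of the 12 and in 1.45% of all. Bases farther than 250 before the start were not searched, so these absences hold for the windows only. Of the members with TGACG, Fos, Fosb, Junb and Jdp2 were lower in NASH macrophage-like cells (below) and Batf was higher. Of those without it, Fosl2 and Jund were lower (Jund not per cell), Atf3 was higher, and Jun and Batf3 were not called. The Jund window ends at 70697731 on chromosome 8, while the gene starts only at 70698949 in GENCODE vM21, so it does not adjoin that start. Whether the motif bears on the diet difference was not tested. A match describes letters in the window and does not show a bound site.

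The files held 1550 and 1805 barcodes for control libraries 1 and 2 and 1639 and 1933 for NASH libraries 1 and 2, and 6158 cells were kept after filters. A barcode held 3064.5 (control 1), 2573 (control 2), 7447 (NASH 1) and 7344 (NASH 2) UMIs at the median, and the median mitochondrial share was 6.43%, 6.23%, 3.43% and 3.21% in the same order. Depth therefore moved with diet. Any 2 libraries shared 2 to 8 barcodes. Ptprc, which encodes CD45, had a UMI in 71.5% to 80.7% of kept cells per library. Mcam, which encodes CD146, had a UMI in 1.08% to 2.89% of them, and in 24.6% to 29.4% of the cells of a cluster with endothelial markers, which the sort should have removed and of which 23.6% to 52.1% had a Ptprc UMI. The control libraries differed from each other. Fkbp5, a glucocorticoid-induced gene, was at 161 CPM (the usual library-size scale, a gene's share of all UMIs in the sum) in macrophage-like cells of control 1, at 18.3 in control 2, and at 14.4 and 11.4 in NASH 1 and 2, and the haemoglobin RNA Hbb-bs was at 1916 CPM in control 2 against 33.3 to 37.8 in the other 3. Each control library is therefore given apart throughout. Cells were clustered without the members and without other immediate-early genes, and classes were named from marker genes. The largest class, macrophage-like cells (C1qa, C1qb and C1qc detected in nearly every cell), held 966 and 869 control cells and 752 and 1038 NASH cells.

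In macrophage-like cells the Fos family and its usual partner Junb were lower in NASH, Atf3 and Batf were higher, and Jun and Batf3 did not pass the test. UMIs of each library were summed over the class and compared by the quasi-likelihood test of edgeR, and p-values were adjusted over 10314 genes (Benjamini-Hochberg). Levels are CPM scaled by TMM, a factor that centres the bulk of genes, and all 10 members were tested. Of the 10, 6 were lower, a direction shared by 21.0% of all genes tested, and 2 were higher, against 23.0% of all genes. The median log2 difference was -1.24 over the 10 and -0.02 over all genes. Of all genes called, 52.3% were higher on this scale, against 25.1% without scaling factors and 96.4% per cell. The diets did not overlap for 9 of the 10, as for 73.7% of all genes. Different clusters made up the class under each diet: clusters led by Fkbp5 and by Marco held most control cells, and clusters led by Folr2, Cx3cr1, Ear2 and Mmp12 held most NASH cells.

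Fos, the founding member, stood at 472 and 267 TMM CPM in control 1 and 2 and at 112 and 110 in NASH 1 and 2. Both control libraries lay above both NASH libraries, and control 1 lay well above control 2. The fitted log2 difference was -1.74 (SE 0.257, adjusted p = 0.0018). Fosb, a close relative of Fos with the same partners, was at 121 and 59.2 in control and at 23.0 and 13.9 in NASH, and the groups did not overlap. It fell by 2.32 on the log2 scale (SE 0.459, adjusted p = 0.0181), a call that was lost without NASH 2 (adjusted p = 0.0612). Fosl2, which encodes FRA2, a Fos protein without the strong activation domain of Fos, was at 119 and 46.0 in control and at 18.3 and 20.0 in NASH. Its control libraries differed most of all members, and the diets did not overlap. The difference of -2.12 (SE 0.524, adjusted p = 0.0397) was lost without NASH 1 (adjusted p = 0.283) or without NASH 2 (0.246), and the value was -1.26 without control 1 (adjusted p = 0.000223).

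The 3 Jun genes differed from each other. Junb, the Jun protein that often restrains Jun, had 601 and 440 TMM CPM in control and 167 and 162 in NASH, and the control libraries lay above both NASH libraries. Junb fell by 1.66 (SE 0.168, adjusted p = 8.72e-05). Jund, the most evenly expressed Jun protein in most cells, had 446 and 380 in control and 245 and 221 in NASH, again without overlap. Jund fell by 0.83 on this scale (SE 0.144, adjusted p = 0.00135), and per cell its sign turned (below). Jun itself, the strongest activator of the 3, had 101 and 69.9 in control and 64.0 and 120 in NASH. Its NASH libraries lay on either side of the controls, and the difference of 0.11 (SE 0.357, adjusted p = 0.829) turned negative without NASH 2 or without control 2.

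Atf3, a stress-induced factor that represses many inflammatory genes, was at 34.2 and 28.3 TMM CPM in control and at 66.6 and 107 in NASH. Both NASH libraries lay above both controls, and NASH 2 was the highest. Atf3 rose by 1.47 (SE 0.236, adjusted p = 0.00144), and the call was lost without control 1 (adjusted p = 0.0546) or without control 2 (0.0756). Jdp2, a Jun dimerization protein that represses AP-1 target genes, was at 90.9 and 52.5 in control and at 11.8 and 15.4 in NASH. Jdp2 showed the largest fitted fall of the 10 members, by 2.39 (SE 0.278, adjusted p = 0.000414), with no overlap of the diets. Fos and Jdp2, both lower, and Batf, which was higher, are neighbours on chromosome 12, between 85473890 and 85709087 in GENCODE vM21 (mm10).

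Batf, which lacks an activation domain and works with IRF4 and IRF8, was at 11.9 and 16.1 TMM CPM in control and at 19.8 and 25.7 in NASH. The diets did not overlap, and Batf rose by 0.72 (SE 0.223, adjusted p = 0.0237). This call was lost in 9 of 21 alternatives. Among them were the DESeq2 Wald test (adjusted p = 0.108) and edgeR without scaling factors (0.22) or without the Fkbp5-led cluster (0.214). The difference was 0.51 without control 1 and 0.53 without NASH 2. Batf3, its relative needed by cross-presenting dendritic cells, was at 104 and 82.1 in control and at 107 and 108 in NASH, a difference of 0.21 (SE 0.147, adjusted p = 0.275). The values of the 2 NASH libraries lay just above control 1, and without scaling factors the sign turned (-0.16).

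**Figure D1:**
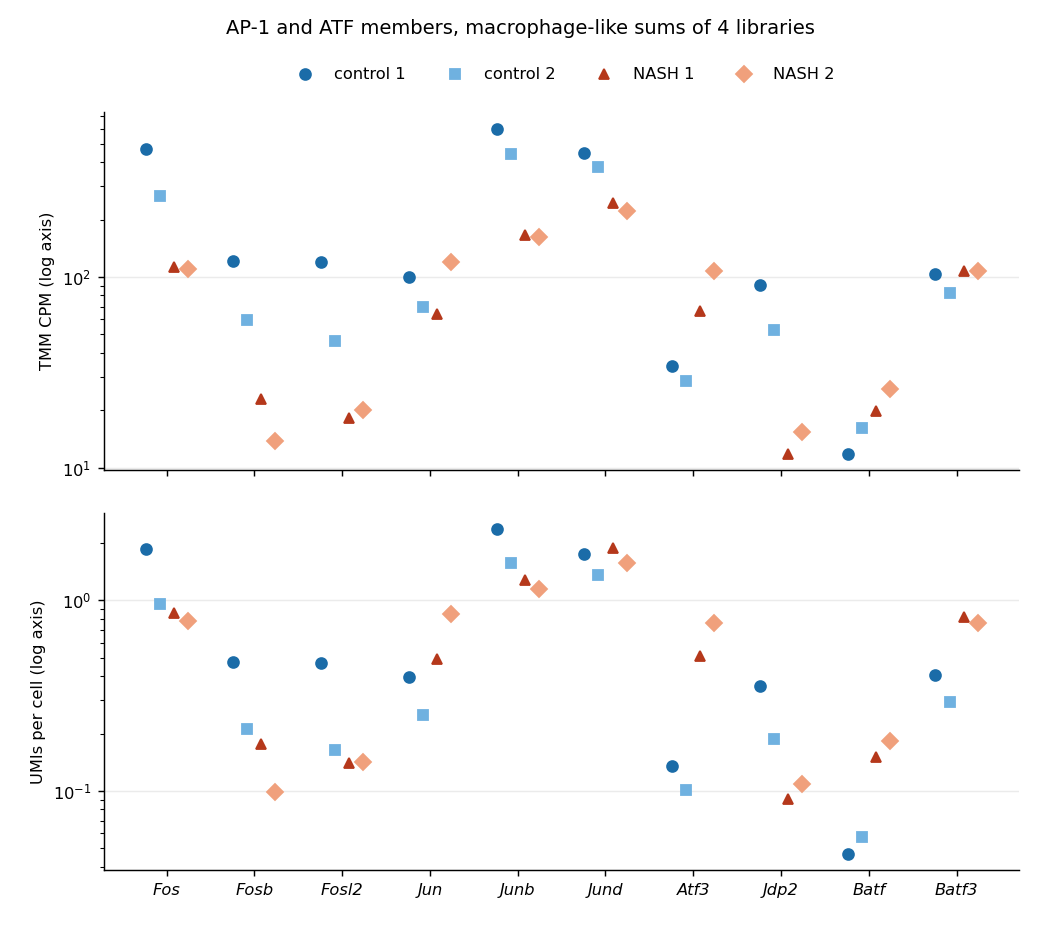
Level of each of the 10 members in macrophage-like sums, as TMM CPM (upper, log axis) and as UMIs per cell (lower, log axis), with 1 point per library and no error bars. Fos, Fosb, Fosl2, Junb and Jdp2 lie lower in both NASH libraries on both axes, Jund does so only in the upper panel, and Atf3 and Batf lie higher on both.

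Because NASH cells held more UMIs, the same sums were also divided by the number of cells, a scale chosen after seeing the data. On this scale the median of all genes was 0.95 higher in NASH (log2), so a member without change in its share of the RNA sits near that value. Fos had 1.86 and 0.954 UMIs per cell in control and 0.859 and 0.776 in NASH (log2 -0.78, adjusted p = 0.0392). Junb had 2.36 and 1.57 in control and 1.27 and 1.15 in NASH (-0.70, adjusted p = 0.00487). Jdp2 had 0.357 and 0.188 in control and 0.0904 and 0.109 in NASH (-1.45, adjusted p = 0.000925). These 3 were the members called lower per cell. Fosb (-1.35, adjusted p = 0.11) and Fosl2 (-1.18, adjusted p = 0.185) did not pass the test per cell, and control 2 lay close to the NASH libraries for Fosl2 (0.165 against 0.14 and 0.142). Jund had 1.75 and 1.36 UMIs per cell in control and 1.88 and 1.57 in NASH, a difference of 0.14 (adjusted p = 0.488) against -0.83 on the TMM scale. Atf3 (2.43), Batf (1.69), Batf3 (1.17) and Jun (1.05) were all called higher per cell. More RNA per cell and a deeper library cannot be told apart here, since the labels and files hold no measure of RNA content.

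The 2 control libraries differed more from each other in the Fos family than genes in general. In macrophage-like sums control 1 was above control 2 by 1.77-fold for Fos, 2.03-fold for Fosb, 2.56-fold for Fosl2 and 1.72-fold for Jdp2 (TMM CPM plus 1), while the median of 7020 genes with a mean of at least 10 TMM CPM was 0.999 and 3.79% of them reached 1.5-fold. Junb (1.37), Jund (1.17), Atf3 (1.20), Jun (1.43) and Batf3 (1.26) were below 1.5-fold, and Batf was lower in control 1 (0.752). Between the NASH libraries, Jun (1.86) and Atf3 (1.60) were at least 1.5-fold higher in NASH 2, as were 1.98% of genes, while Fosb was lower in NASH 2 (0.621). These ratios compare libraries and carry no test.

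Cluster by cluster, the control difference lay within clusters as well as between them. The Fkbp5-led cluster held 822 cells of control 1 and 89 of control 2, and the Marco-led cluster held 111 and 719. Fos was at 568 CPM (95% counting interval 541 to 596) and 407 (332 to 495) in the Fkbp5-led cluster of control 1 and 2, and at 356 (297 to 424) and 297 (275 to 320) in the Marco-led cluster. Both clusters thus ranked control 1 first, and the Fkbp5-led cluster was higher within each library. Fkbp5 itself followed the library, at 170 and 24.0 CPM in the first cluster and 127 and 18.5 in the second. Without the Fkbp5-led cluster, an alternative added after seeing the data, the same 6 members stayed lower and Atf3 higher, while Batf was lost (adjusted p = 0.214), and Fos then differed by -1.36 and Fosl2 by -1.33. The part that the Fkbp5 difference between control libraries has in the member levels was not tested.

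Cells with the resident Kupffer phenotype were compared alone, taking macrophage-like cells with a UMI of both Clec4f and Timd4, genes taken as its marks (675, 576, 108 and 202 cells in control 1, control 2, NASH 1 and NASH 2). They held 3460, 3214.5, 9149 and 8033.5 UMIs at the median in the same order, and such a gate depends on depth. Whether it takes cells of the same origin under both diets was not tested. Of the 10 members 5 were lower, with 11.3% of 8679 genes lower, and 3 were higher, with 16.5% higher. Fos was at 485 and 261 TMM CPM in control and at 115 and 80.1 in NASH (log2 -1.96, SE 0.346, adjusted p = 0.0087). Junb was at 586 and 438 against 184 and 145 (-1.65, SE 0.188, adjusted p = 2.54e-05), and Jdp2 at 93.1 and 53.5 against 7.79 and 20.5 (-2.26, SE 0.41, adjusted p = 0.00437). The diets did not overlap for these 3 genes. The share of all genes without overlap was not taken in these cells, and was 73.7% in all macrophage-like cells. Fosb (-1.98, adjusted p = 0.0326) and Jund (-0.71, adjusted p = 0.0041) were also lower, though the sign of Jund turned per cell (0.26). Fosb was not called without NASH 1 (adjusted p = 0.073) or NASH 2 (0.191), nor Jund without NASH 2 (0.0601). Fosl2, at 120 and 42.3 in control and 20.0 and 16.6 in NASH, did not pass (adjusted p = 0.115), but was called without control 1 (-1.23, adjusted p = 0.000699) or without control 2 (-2.73, adjusted p = 1.42e-22). Atf3 (0.88, adjusted p = 0.0198), Batf (0.83, adjusted p = 0.0444) and Batf3 (0.52, adjusted p = 0.0401) were higher. None of the 3 was called without NASH 2 (adjusted p = 0.558, 0.513 and 0.141).

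The Folr2-led cluster, with Clec4f and Cd5l among its 10 leading genes, was the macrophage-like cluster that both diets filled with more than 20 cells per library (23, 29, 122 and 284 cells). Within it, in a comparison added after seeing the data, none of the 9 members tested was called by edgeR (Fosl2 was too low for the test there), and of 5352 genes 12 were higher and 48 lower. Atf3, Junb, Jdp2 and Jun were under an unadjusted p of 0.05. Fos was at 212 CPM (95% counting interval 119 to 350) in control 1 but at 74.4 (24.1 to 174) in control 2, and at 103 and 84.0 in NASH. Control 2 thus lay below both NASH libraries for Fos (log2 -0.64, adjusted p = 0.644), while for Junb the controls were at 368 and 178 and the NASH libraries at 186 and 126 (-0.83, adjusted p = 0.343). The control sums of this cluster rest on 15 and 5 UMIs of Fos. Atf3 had none in either control library, and stood at 36.6 and 51.8 CPM in NASH. In the Cx3cr1-led cluster Fos was at 318 (182 to 516) and 359 (265 to 474) CPM in control, from 8 and 30 cells, and at 148 and 170 in NASH.

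Atf3 differed among the NASH clusters. In the Mmp12-led cluster, which also had Gpnmb and Cd63 among its leading genes and held no control cell, Atf3 was at 86.8 CPM (75.2 to 99.7) in NASH 1 and at 192 (174 to 211) in NASH 2. In the Cx3cr1-led and Ear2-led clusters it was at 45.3 and 44.7 in NASH 1 and at 77.4 and 54.6 in NASH 2. The Mmp12-led cluster was therefore the highest of the 4 in each NASH library. Fosb ran the other way, at 4.36 and 4.68 CPM there against 27.5 and 21.1 in the Folr2-led and 28.8 and 13.8 in the Cx3cr1-led cluster of NASH 1 and 2. These are levels over cells of the same libraries and were not tested.

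**Figure D2:**
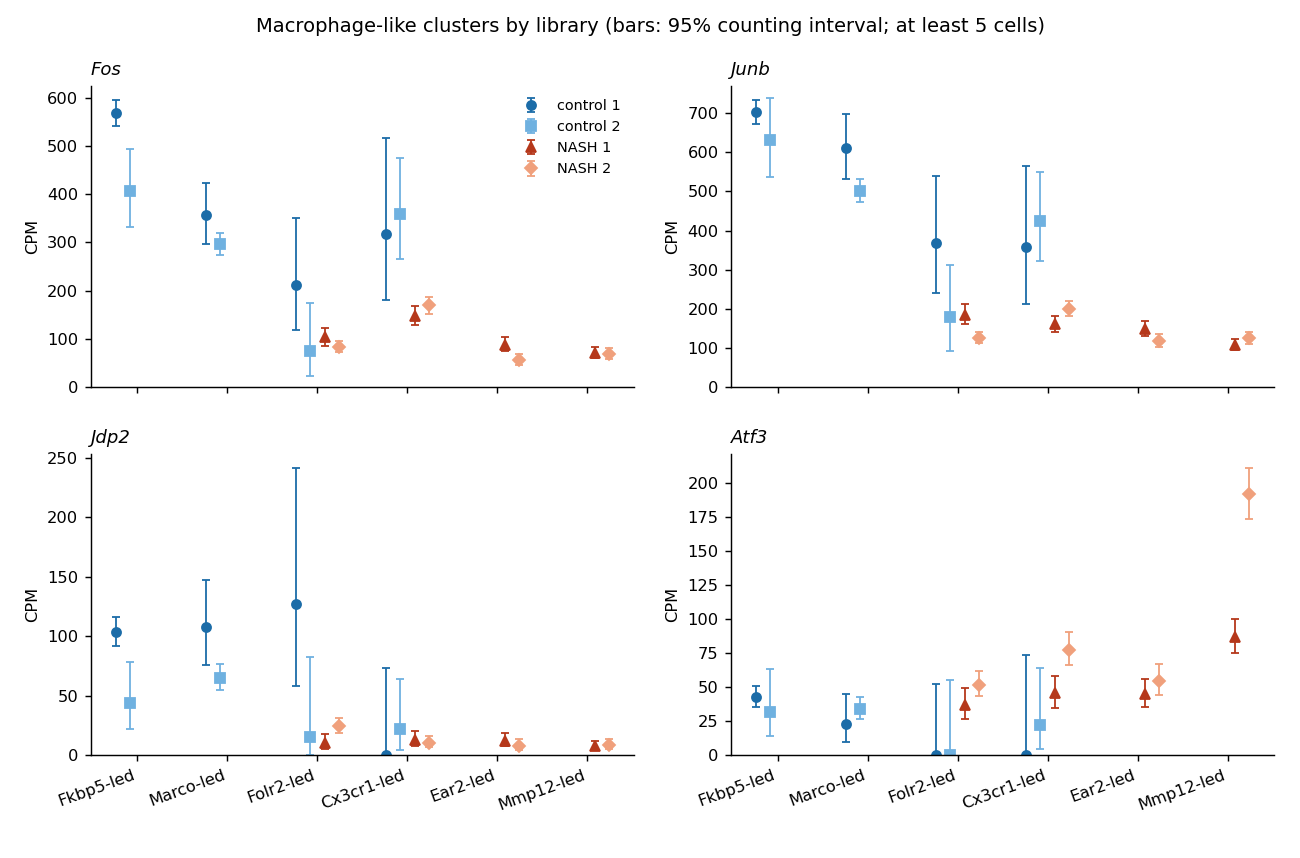
Fos, Junb, Jdp2 and Atf3 in 6 macrophage-like clusters, 1 point per library with at least 5 cells, as CPM of the cluster's summed UMIs; bars are 95% intervals of counting error only. Fos and Junb are highest in the Fkbp5-led cluster of control 1, and Atf3 is highest in the Mmp12-led cluster of NASH 2.

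Shares of cells with a UMI were compared at equal depth. Each cell was thinned to 1000 UMIs, which left out 13 and 9 control macrophage-like cells and no NASH cell. Fos then had a UMI in 38.2% and 26.2% of control cells and in 9.71% and 7.71% of NASH cells, and Junb in 50.2% and 39.4% against 14.1% and 12.1%. Jund was in 41.4% and 33.5% of control and 16.8% and 17.1% of NASH cells. In plasmacytoid dendritic cell-like cells of the same libraries Fos was in at most 2.08% and Junb in at most 4.17% of cells of a library at the same 1000 UMIs. The part of background RNA in these shares was not tested. Without thinning the shares were 68.1% and 49.9% against 39.9% and 33.2% for Fos, and 76.6% and 66.5% against 71.0% and 67.1% for Jund, so that the Jund groups overlapped. Atf3 after thinning was in 4.83% and 3.37% of control and 4.12% and 7.80% of NASH cells, which overlap.

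A thinned macrophage-like cell held UMIs of 1.92 and 1.37 different members on average in control and of 0.658 and 0.694 in NASH. No member was detected in 12.2% and 25.1% of control cells but in 53.3% and 48.8% of NASH cells, and at least 3 were seen in 30.6% and 15.2% against 3.46% and 3.37%. Control 2 lay between control 1 and the NASH libraries in each of these measures. Across thinned cells of 1 library, members showed little tendency to appear together: the 45 pairwise correlations had medians between -0.00 and 0.03, and the highest was 0.20 (Fosb with Jun, 860 cells of control 2). In counts this sparse such values are no finding.

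Cycling macrophage-like cells, a cluster led by Top2a and Birc5 with C1q genes in nearly every cell (52, 51, 67 and 89 cells), gave 6 lower members of 10, where 11.0% of 6229 genes were lower, and no higher member. They were the 6 lower members of the main class. Junb was at 564 and 418 TMM CPM in control and at 141 and 137 in NASH (log2 -1.82, SE 0.2, adjusted p = 3.76e-06). Fosb was at 110 and 92.8 against 25.5 and 14.0 (-2.39, SE 0.358, adjusted p = 8.72e-05), and here the control libraries were close. Fos (-1.29), Fosl2 (-1.90), Jund (-1.41) and Jdp2 (-1.99) were the others. Without control 1 Fos was at -0.55 and not called (adjusted p = 0.23), and Fosl2 was not called without NASH 1 (0.0515), NASH 2 (0.0516) or control 1 (0.0885). Per cell only Fosb was called lower, and Fos was at 0.02. No difference between the diet effects of this cluster and of macrophage-like cells was called for a member, where 0.0127% of 7874 genes were called.

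Endothelial-like cells (57, 127, 73 and 51 cells), which the CD146 gate should have removed, gave 2 higher members of 8 tested, with 4.98% of 5324 genes higher, and none lower. Of the 2, Fosb was lower in macrophage-like cells and Jun was not called there. Fosb was at 14.4 and 13.9 TMM CPM in control and at 74.7 and 38.2 in NASH (log2 2.03, SE 0.529, adjusted p = 0.0211). Its control level rests on 8 UMIs in all, and only 11 alternatives, DESeq2 not among them, gave Fosb an adjusted p. Jun was at 129 and 99.9 in control and at 200 and 334 in NASH (1.23, SE 0.289, adjusted p = 0.0118). In both genes the NASH libraries lay above both controls. Fosb was not called without NASH 1 (adjusted p = 0.54) or without control 2 (0.181), and Jun was not called without NASH 2 (0.0911) or without control 2 (0.165), nor in 6 more of 19 alternatives, DESeq2 and thinning among them. Fos, at 359 and 172 in control and 435 and 446 in NASH, did not pass (0.77, adjusted p = 0.11). Fosl2, at 95.7 and 52.7 in control and 50.5 and 28.6 in NASH, had a negative difference as in macrophage-like cells and did not pass either (-0.77, adjusted p = 0.276). C1qa, a macrophage gene, was at 736 and 477 CPM in control and at 1210 and 1255 in NASH in these cells, and its part in the result was not tested.

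The difference between the diet effects of endothelial-like and macrophage-like cells was tested directly in 1 fit with library as a block. It was called for 5 of 10 members, all higher in the endothelial-like cells, against 2.60% of 7874 genes. For Fosb it was 4.26 on the log2 scale (SE 0.508, adjusted p = 9.89e-10), for Fos 2.61 (SE 0.291, adjusted p = 1.33e-09) and for Jund 1.34 (SE 0.261, adjusted p = 0.000246). These 3 calls held in every alternative in which they could be fitted, with adjusted p at most 0.0254, 0.00147 and 0.0331. Junb (2.29, adjusted p = 0.018) and Jun (1.21, adjusted p = 0.0115) were called as well, but Jun was lost in 9 of 17 alternatives, including each one that left out a library.

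Other classes gave few calls. In B cell-like cells (42, 55, 49 and 90 cells) 4 members were tested. Jun was at 27.7 and 18.7 TMM CPM in control, from 7 UMIs in all, and at 77.0 and 76.8 in NASH. It was called higher (log2 1.72, SE 0.498, adjusted p = 0.00941), where 9.01% of 2820 genes were higher. This call was lost in 8 of 17 alternatives, among them each that left out 1 library (adjusted p = 0.0526 to 0.204). In dendritic cell-like cells (11, 30, 185 and 154 cells) Junb alone of 10 was lower, at 331 and 272 against 169 and 122 (-1.02, SE 0.234, adjusted p = 0.0459), where 0.998% of 6113 genes were lower, and the call was lost in 8 of 16 alternatives, DESeq2, thinning and the per cell scale among them, and also without control 1 (0.0643) or without NASH 2 (0.361). In T cell-like, plasmacytoid dendritic cell-like and cycling C1q-low cells, 3, 1 and 5 members were tested and none was called, where 1.18%, 2.47% and 2.72% of genes were. DESeq2 called none of them either, and at an unadjusted p under 0.05 edgeR had only Batf3 in cycling C1q-low cells (1.39, adjusted p = 0.128). Against the macrophage-like effect, Fos differed in B cell-like (2.39, adjusted p = 0.000116), cycling C1q-low (1.52, adjusted p = 0.00537) and dendritic cell-like cells (1.31, adjusted p = 0.0118), Fosb in dendritic cell-like cells (2.30, adjusted p = 0.00647) and Jund in T cell-like cells (1.60, adjusted p = 0.00153). No member was called in the like test of plasmacytoid dendritic cell-like cells, where 7.48% of genes were (DESeq2 was not run for these tests). Genes called higher in these tests were 3.56%, 1.02%, 2.13% and 0.457% for B cell-like, cycling C1q-low, dendritic cell-like and T cell-like cells. Monocyte-like cells (9, 14, 173 and 134 cells) were too few in control for the test. Fos was there at 424 and 491 CPM in control and at 188 and 185 in NASH, and Junb at 566 and 751 against 256 and 211. Neither gene overlapped between diets, but the share of all genes without overlap was not taken there.

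**Figure D3:**
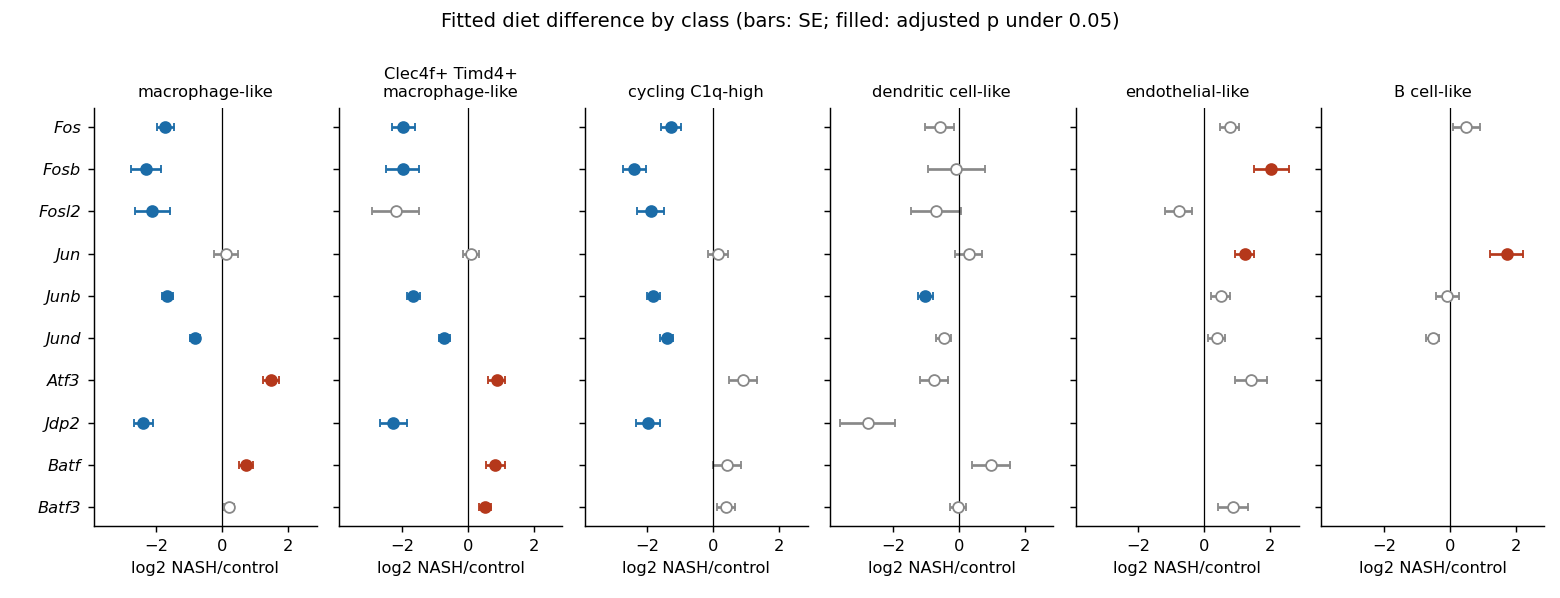
Fitted log2 difference of each tested member, NASH against control, in 6 sets of cells on the TMM scale, with bars of 1 SE; filled points passed an adjusted p of 0.05 (blue lower, red higher), and untested members are blank. The Fos family, Junb, Jund and Jdp2 lie left of 0 in the 3 macrophage sets, where Jund moves to the right of 0 per cell in the first 2, while Fosb and Jun lie right of 0 in endothelial-like cells.

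Across classes, the levels of the members set plasmacytoid dendritic cell-like cells and T cell-like cells apart from macrophage-like cells. Each class was compared with macrophage-like cells in 1 fit with library as a block. In plasmacytoid dendritic cell-like cells (75, 171, 48 and 51 cells) 9 of 10 members were lower, all but Batf, where 27.4% of 7874 genes were lower. Fos there was at 15.8, 10.3, 15.1 and 19.1 CPM in control 1, control 2, NASH 1 and NASH 2, a log2 difference of -3.99 (SE 0.546, adjusted p = 1.46e-06). Jdp2 had 1 UMI in the 4 libraries together (-6.02, SE 0.679, adjusted p = 1.49e-10). Batf was at 15.8, 26.9, 26.4 and 30.6 CPM, and did not differ past the threshold (0.53, adjusted p = 0.133).

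Jdp2 was lower than in macrophage-like cells in 6 of the 7 other classes, every one but the cycling C1q-high cells (log2 0.03, adjusted p = 0.963). In control 1 and 2 it was at 103 and 59.7 CPM in macrophage-like and at 100 and 75.2 in cycling C1q-high cells, against 26.0 and 24.4 in dendritic cell-like cells and 22.4 and 10.7 in endothelial-like cells. In T cell-like cells it had no UMI in either control library, where 3 UMIs would be 58.1 and 36.4 CPM, and 1 UMI in each NASH library. Over the 10 members, 6 were lower in T cell-like cells and 4 each in B cell-like, dendritic cell-like, endothelial-like and cycling C1q-low cells, where 22.7%, 18.7%, 22.2%, 18.2% and 25.3% of genes were lower. In cycling C1q-high cells none differed, where 14.7% of genes did, though Atf3, Fos and Fosl2 had an unadjusted p under 0.05 (DESeq2 was not run for these contrasts). Batf3 and Jund, both lower in cycling C1q-low cells (-0.60 and -0.88), turned sign per cell (0.45 and 0.32). For Batf3 only the control libraries were lower, at 28.8 to 42.9 CPM from 10 UMIs, against 93.4 to 117 in macrophage-like cells. In NASH it was at 95.7 to 97.6 CPM against 93.1 to 95.2.

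Batf and Batf3 gave opposite calls in T cell-like cells. Batf was the only member higher in T cell-like cells (11, 29, 47 and 54 cells), at 19.4 CPM from 1 UMI (95% counting interval 0.49 to 108) and 48.6 from 4 in control and at 93.7 and 90.3 in NASH, a log2 difference of 1.81 from macrophage-like cells (SE 0.315, adjusted p = 5.29e-06), where 16.4% of genes were higher. The diets did not overlap in these cells, but the diet test did not pass (1.31, adjusted p = 0.534). Batf3, by contrast, had 1 UMI in T cell-like cells of the 4 libraries together (-5.81, SE 0.669, adjusted p = 4.63e-10). In dendritic cell-like cells Batf3 was at 156, 151, 137 and 165 CPM in control 1, control 2, NASH 1 and NASH 2, above macrophage-like cells (0.64, SE 0.214, adjusted p = 0.0138), where 19.0% of genes were higher. Of 13 alternatives 4 lost this call, and none of 15 lost that of Batf in T cell-like cells.

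Among the dendritic clusters, Batf3 was at 187, 150, 199 and 215 CPM in control 1, control 2, NASH 1 and NASH 2 in the Xcr1-led cluster, whose markers Xcr1 and Naaa belong to cross-presenting dendritic cells. It was at 175 and 189 CPM in NASH 1 and 2 in the Fscn1-led and Ccr7-expressing cluster, and at 64.0 (46.3 to 86.3) and 50.1 (30.2 to 78.2) in the Cd209a-led cluster. The Cd209a-led cluster was the lowest of the 3 in both NASH libraries, and in control 2, from 6 UMIs, it was at 117 (42.9 to 254). These levels were not tested. Jun was higher in endothelial-like than in macrophage-like cells (0.69, SE 0.243, adjusted p = 0.0208), at 121, 96.0, 175 and 308 CPM, where 21.6% of genes were higher, a call lost in 9 of 17 alternatives. It was lower in T cell-like (-1.08, adjusted p = 0.0186) and dendritic cell-like cells (-0.93, adjusted p = 0.00622), calls lost in 8 of 16 and 2 of 14 alternatives. Atf3 was lower than in macrophage-like cells in T cell-like (-2.83, adjusted p = 0.000748), cycling C1q-low (-2.10, adjusted p = 0.000174), dendritic cell-like (-1.06, adjusted p = 0.013) and endothelial-like cells (-1.10, adjusted p = 0.013), calls lost in 2 of 15, 2 of 12, 4 of 13 and 5 of 16 alternatives. These contrasts take both diets together. In dendritic cell-like cells Atf3 was at 34.7 to 48.7 CPM in control, against 32.2 to 38.7 in macrophage-like cells, so it was not lower there. In NASH it was at 26.0 to 26.1 against 57.9 to 94.8.

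**Figure D4:**
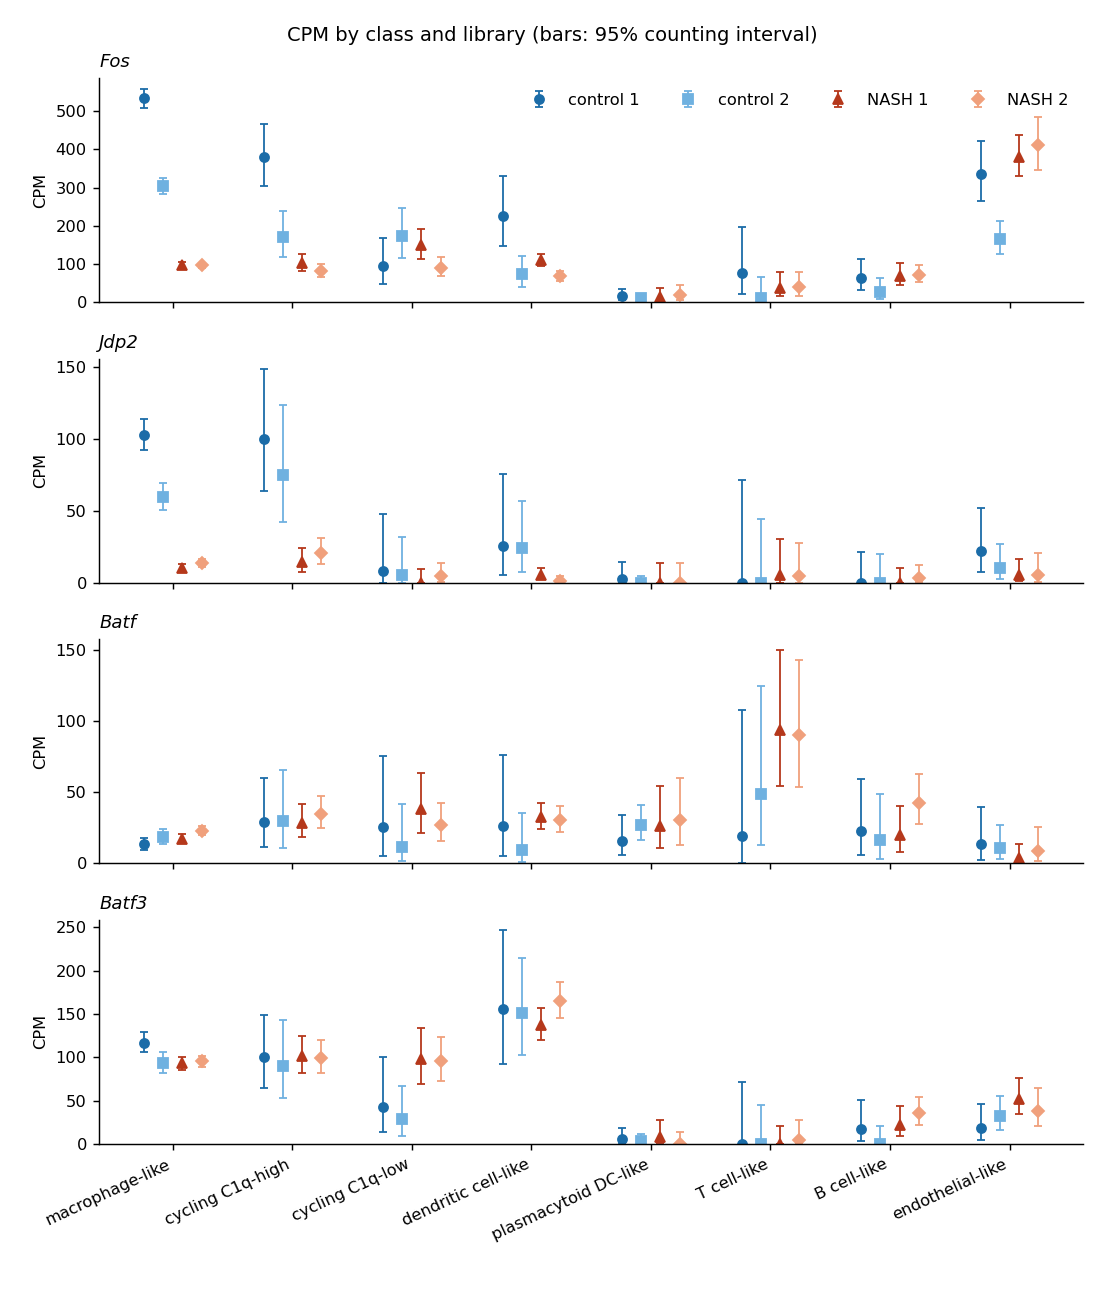
Fos, Jdp2, Batf and Batf3 in 8 classes, 1 point per library, as CPM of the class's summed UMIs; bars are 95% intervals of counting error only. Fos and Jdp2 are high in the control macrophage-like and cycling C1q-high cells, Fos also in endothelial-like cells, Batf is highest in NASH T cell-like cells, and Batf3 is highest in dendritic cell-like cells.

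The genes around AP-1 in its signalling pathway were counted in the same macrophage-like fit, by lists drawn up for the pathway, and each count stands beside 21.0% lower and 23.0% higher of all 10314 genes, with a median of -0.02. Of the feedback genes, which switch the signal off again, 12 of 16 were tested, 7 were lower and none was higher (median log2 -0.81). Dusp1, a MAP kinase phosphatase, was at 446 and 297 TMM CPM in control and 97.2 and 102 in NASH (log2 -1.90, adjusted p = 0.000112), and Ier3 at 51.6 and 52.5 against 9.22 and 13.7 (-2.16, adjusted p = 6.11e-05). Control 1 was the highest library for Dusp1, as for Fos and Junb, while both controls were at nearly the same level for Ier3. Zfp36, which speeds the decay of AU-rich RNA (-1.31), and Tob2 (-1.35) were lower too.

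Of the other immediate-early and stress genes, 22 of 23 were tested, 8 were lower and 2 higher (median -0.62). Nr4a1, an orphan nuclear receptor induced with Fos, was at 126 and 72.1 in control and 20.5 and 25.0 in NASH (-2.12, adjusted p = 0.000836), Klf10 (-1.49) and the growth-arrest gene Btg1 (-1.39) fell, and Hsp90aa1, a heat shock protein, was at 130 and 169 against 305 and 328 (1.08, adjusted p = 0.00049). Of the MAP kinases and serum response factors, 23 of 24 were tested, 13 were lower and 3 higher (median -0.55). Elk4, a partner of SRF at the Fos promoter, was at 40.6 and 38.0 against 15.8 and 16.9 (-1.26, adjusted p = 0.000282), Map3k5 fell by 1.34 and Mef2a by 0.80, and Mef2c was at 5.53 and 10.6 against 63.1 and 43.1 (2.74, adjusted p = 0.000261). Per cell, Mef2a (0.17) turned sign.

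Of other bZIP factors, 23 of 25 were tested, 8 were lower and 2 higher (median -0.34). Maf, the macrophage factor c-MAF, was at 668 and 851 in control and 279 and 339 in NASH (-1.30, adjusted p = 0.000282), Mafk fell by 1.28 and Atf7 by 0.72 (0.25 higher per cell), and Cebpa was at 105 and 69.9 against 157 and 144 (0.78, adjusted p = 0.0074). Of the glucocorticoid response genes, 10 of 13 were tested, 4 were lower and 1 higher (median -0.81). Cd163 was at 1287 and 1269 in control and 3.83 and 10.2 in NASH (-7.47, adjusted p = 0.000149), Tsc22d3 (-0.89, and 0.06 per cell) and Errfi1 (-1.11) fell, and Mt1 rose (0.62). Fkbp5 did not pass (-2.46, adjusted p = 0.301).

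Of the AP-1 target genes, 17 of 19 were tested, 7 were higher, 3 were lower and the rest were not called (median 0.97). Mmp12 was at 12.4 and 16.7 in control and 935 and 867 in NASH (5.96, adjusted p = 2.59e-07), Itgax rose by 4.76 and Mmp13 by 4.70, and Il1b was at 336 and 356 against 113 and 132 (-1.50, adjusted p = 6.73e-05). Of the BATF partners and targets of dendritic cells, 3 of 7 were tested, Irf8 was higher (0.75, adjusted p = 0.00241), and Clec9a (-0.53, adjusted p = 0.101) and Id2 (0.36, adjusted p = 0.14) did not pass. These lists were drawn up with results of these data known, and their counts are not independent evidence.

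Some genes listed as markers of other cell types also differed by diet in the macrophage-like sums. Of the hepatocyte markers, 9 of 9 were tested and 7 were lower, with a summed level of 1113 to 1261 CPM in control and 462 to 584 in NASH. Of the endothelial markers, 11 of 12 were tested and 8 were lower, at 769 to 804 against 219 to 221. Cdh5 alone was at 429 and 454 TMM CPM in control and 137 and 135 in NASH. Of the monocyte markers, 12 of 13 were tested, 5 were higher and 1 lower, at 621 to 725 against 634 to 738. The erythroid and platelet markers were at 290 and 4751 in control and 461 to 496 in NASH. Pf4 alone was at 169 and 226 TMM CPM in control and 485 and 436 in NASH. The plasma cell markers were at 74.5 and 79.1 against 14.4 and 31.1, and the cycling markers at 47.7 and 50.9 against 83.5 and 66.8. No listed gene of these 6 groups was at 0. Whether the UMIs of these markers came from other cell types or from the macrophage-like cells themselves was not tested. Their part in the member differences was not tested either.

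Counts on Junb, Jund, Jun and Jdp2 carry a limit from the annotation. Junb overlaps Prdx2 on the other strand, a gene with 5301 UMIs in the macrophage-like sums that rose in NASH (log2 0.73, adjusted p = 0.00161), opposite to Junb. Jun overlaps Junos (27 UMIs) and Jund overlaps Gm11175 (17 UMIs). Jdp2 overlaps Gm47863, which the table does not list. Whether reads were counted by strand is not given in the sources used here, so reads of such pairs may have been mixed.

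The genes most like each member in level were sought over 33 sums of at least 20 cells from 1 class and library, which share libraries and depth, among 5338 genes with a mean of at least 20 CPM. The measure was Pearson's r of log2(CPM + 10), given as a description. Fos was most like App (0.91), Mtus1 (0.90) and Ifitm2 (0.88), Fosb most like Armc8 (0.83), and Fosl2 most like Dusp1 (0.84). Junb was most like Rbms1 (0.89) and then Dusp1 (0.86), Jund most like Itgb1 (0.80), with Junb at rank 3 (0.77), and Jun most like Adipor1 (0.80) and Mapk3 (0.80), which encodes the kinase ERK1. Atf3 was most like Clec4a2 (0.87), Jdp2 most like Cd300e (0.88) and Spic (0.87), Batf most like Hnrnpf (0.71), and Batf3 most like Pak1 (0.94), Rab7b (0.92) and Rab32 (0.90). Batf had the lowest best match of the 10 members.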

How the data were processed

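The deposited files hold UMI counts per gene and cell barcode, as the authors deposited them, as whole numbers without normalization. Cell Ranger, Seurat and the build mm10 are named per the submitters' processing notes, without versions, and neither how barcodes were called nor whether reads were counted by strand is given in the sources used here.

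Barcodes under 200 genes or over 10% mitochondrial UMIs were dropped, and putative doublets were removed at 0.8% per 1000 cells. With scanpy 1.11.5 (Python 3.11.15), 1984 of the 2000 most variable genes (without the members and related early genes) gave 30 principal components, 15 neighbours and Leiden clusters at resolution 1.0. Classes were named from marker lists, and clusters were called C1q-high where 90% of cells held C1qa, C1qb and C1qc UMIs, a rule adjusted after the clusters were seen. Libraries are the replicates, with 2 per diet. UMIs were summed per library and class with at least 10 cells in every library, and tested with edgeR 4.0.16 (R 4.3.3, TMM factors, quasi-likelihood test, Benjamini-Hochberg over all genes tested, threshold 0.05). Differences between classes and between their diet effects came from 1 fit with library as a block. The DESeq2 1.42.0 Wald test, other scalings, filters and clusterings, thinning and leaving out each library were the alternatives. The test was tried on simulated macrophage-like sums with 10181 genes. It recovered 40 of 50 genes set to 0.25-fold and 24 of 50 at 0.5-fold. Of raised genes it recovered 34 of 50 at 2-fold and 49 of 50 at 4-fold, with 11 false calls in all. Every gene had the same fixed spread, libraries of a diet did not differ otherwise, and far fewer genes changed than were called in the real sums. The recovery and false calls hold for that setting only, since the real control libraries differed from each other.

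All 10 members are named, and up to 4 genes per pathway list, the called genes with the lowest p first. The members, lists and rules were chosen with earlier results of these data known. Libraries held 5513953 to 15619962 UMIs. Intervals (95%, exact Poisson) and floors (3 counts) cover counting error only.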

Additional observations from a re-analysis of the deposited data

Results flagged for a closer look

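The diet effect of several members differed between macrophage-like cells and another class in a direct test of that difference (edgeR, adjusted over 7874 genes). These differences are log2 values, positive where the effect in the other class was the more positive. In endothelial-like cells the difference was 4.26 for Fosb, 2.61 for Fos, 2.29 for Junb, 1.34 for Jund and 1.21 for Jun. Fosb was at 14.4 and 13.9 TMM CPM in control endothelial-like cells, from 8 UMIs in all, and at 74.7 and 38.2 in NASH. In macrophage-like cells it was at 121 and 59.2 in control and 23.0 and 13.9 in NASH. The calls of Fos, Fosb and Jund held in all of 17, 16 and 17 alternatives. That of Junb was lost in 3 of 17 and that of Jun in 9 of 17.

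For Fos the difference was 2.39 in B cell-like cells, 1.52 in cycling C1q-low cells and 1.31 in dendritic cell-like cells. These calls were lost in 1 of 17, 3 of 13 and 4 of 14 alternatives. In B cell-like cells Fos was at 76.1 and 31.2 TMM CPM in control and at 74.1 and 75.0 in NASH, and in those cells the diets overlapped. For Fosb in dendritic cell-like cells the difference was 2.30, lost in 4 of 13 alternatives, and the control level there rests on 6 UMIs in all. For Jund in T cell-like cells it was 1.60, lost in 6 of 16, with Jund at 336 and 396 TMM CPM in control and at 612 and 410 in NASH.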

How the results depend on the processing

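Only 2 libraries stand behind each diet, depth moved with diet, and the control libraries differed from each other, which limits every diet comparison here. In macrophage-like sums, 2 members were higher and 6 lower. Members higher numbered 1 under each of DESeq2, cell-by-cell classes, thinning to 1000 UMIs, plain totals, a stricter cell filter and removal of the Fkbp5-led cluster, 4 per cell and 0 in the Folr2-led cluster alone, and 0 to 2 when a library was left out. Members lower numbered 3 per cell, 0 in the Folr2-led cluster and 4 to 6 without a library. Of all genes, 2373 were higher and 2165 lower, against 6939 and 258 per cell, 1403 and 1152 after thinning, 12 and 48 in the Folr2-led cluster, 1332 and 3973 with plain totals, 1300 and 1186 under the stricter filter, 1325 lower with DESeq2, and 1688 to 2289 higher and 1239 to 2018 lower without a library.

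In the Clec4f+ Timd4+ cells 3 members were higher, against 0 under DESeq2, thinning, plain totals and the Folr2-led cluster alone, 1 with no filter on low counts, the stricter cell filter, upper-quartile factors or without the Fkbp5-led cluster, and 0 to 2 without a library. There 5 were lower, against 2 per cell and 0 in the Folr2-led cluster. Of all 8679 genes there, 1432 were higher and 978 lower, against 5191 and 105 per cell. The counts over all genes were 845 and 323 with DESeq2, 449 and 259 after thinning, and 784 and 2243 with plain totals. In the Folr2-led cluster only 9 and 21 of 3257 genes were called. For the counts over other classes below, no share over all genes was taken under the alternatives. In the other classes 3 calls were higher and 7 lower, against 0 higher with DESeq2 and at Leiden resolution 2.0, 15 higher and 1 lower per cell, 1 and 3 after thinning, and 0 to 7 higher and 5 to 7 lower without a library. Differences of diet effects were 10 higher and 0 lower, against 5 and 2 per cell, 16 higher with plain totals, 1 lower with no low-count filter and with upper-quartile factors, and 6 to 12 higher and 0 to 1 lower without a library. Against macrophage-like cells 3 calls were higher and 31 lower, with 8 higher per cell, 0 higher and 10 lower after thinning, 1 higher and 48 lower with no low-count filter, 6 higher with upper-quartile factors, and 1 to 4 higher and 24 to 32 lower without a library. Of the pathway lists 16 genes were higher and 43 lower, with 54 and 6 per cell, 25 higher with no low-count filter, 0 and 1 in the Folr2-led cluster, and 13 to 22 higher and 28 to 42 lower without a library. Shares of cells gave 2 members higher, against 1 at 500 UMIs, with the stricter filter, with all barcodes and at Leiden resolution 0.5 or 2.0, and 4 without thinning.

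Some log2 values turned sign. In macrophage-like sums these were Fosb in the Folr2-led cluster (0.70), Jun with plain totals (-0.26), the stricter filter (-0.018), without NASH 2 (-0.41) or control 2 (-0.12; range without a library -0.41 to 0.50), Jund per cell (0.14) and in the Folr2-led cluster (0.17), and Batf3 in that cluster (-0.22) and with plain totals (-0.16). In Clec4f+ Timd4+ cells they were Jun with 3 times as many doublets removed (-0.047), after thinning (-0.47), with plain totals (-0.23), the stricter filter (-0.25), without NASH 2 (-0.33) or control 2 (-0.13; range -0.33 to 0.38), Jund per cell (0.26) and in the Folr2-led cluster (0.77), and Batf3 there (-0.67). In cycling C1q-high cells Fos turned per cell (0.0195). Between classes, Batf3 (0.45) and Jund (0.32) in cycling C1q-low cells turned per cell. The Batf share difference turned at 500 UMIs (-0.0232 percentage points) and with the stricter filter (-0.128). The per cell scale, the Fkbp5-led and the Folr2-led alternatives were chosen after seeing the data, and the cause of these shifts was not tested.

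With the replicate number as a block, macrophage-like sums kept counts of 2 higher and 6 lower members, the Clec4f+ Timd4+ cells had 3 and 6, the other classes 3 and 6, and the lists 17 and 41. The numbers are only shared names, since deviations of same-numbered libraries had a correlation of -0.00 over 5057 genes. No pooled count over classes was made where another set of classes reached 10 cells per library (more doublets removed, Leiden resolution 0.5, all barcodes, cell-by-cell classes, clustering on all variable genes, the stricter filter). Neither DESeq2 nor the replicate block was run for differences between classes.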

Other observations

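In cells too few for a test, a few members stood at high levels. In cholangiocyte-like cells, found in the NASH libraries only (6 and 12 cells), Junb was at 1070 and 862 CPM, Jun at 246 and 610 and Fos at 329 and 337. In monocyte-like cells Atf3 was at 141 and 72.2 CPM in control (9 and 14 cells) and at 45.6 and 101 in NASH (173 and 134 cells), so the diets overlapped. In plasma cell-like cells Jund was at 624, 351, 472 and 518 CPM in control 1, control 2, NASH 1 and NASH 2.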
